A study of Homo sapiens with 15 samples.

Results

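The 4 human HOX clusters were examined in MDA-MB-231 cells, an established triple-negative breast cancer line with mesenchymal-like growth. Chromatin immunoprecipitation with sequencing (ChIP-seq) had been done with 3 antibodies, and 4 of the 15 samples of the series had a deposited peak list. H3K4ox, histone H3 oxidised at lysine 4 by LOXL2, had 2 libraries made with a handmade antibody, and the histone variant H2A.Z and the ATPase RUVBL2 had 1 library each. The labels of these 4 libraries give the cell line and the antibody and name no knockdown, so there is a single condition. The input library, the 8 RNA-seq samples of shControl, shLOXL2 and shRUVBL2 cells and the 2 ATAC-seq samples were not analysed here.

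A peak belonged to a cluster when it overlapped 1 of 4 windows in the human genome build hg19 by at least 1 bp. The windows were chromosome 7, 27120000 to 27260000 (HOXA, 140 kb), chromosome 17, 46600000 to 46810000 (HOXB, 210 kb), chromosome 12, 54330000 to 54455000 (HOXC, 125 kb), and chromosome 2, 176940000 to 177060000 (HOXD, 120 kb). By this rule 87 of 647617 deposited peaks were members. They were 36 of 252459 in H3K4ox replicate 1, 36 of 246967 in H3K4ox replicate 2, 5 of 38584 for H2A.Z and 10 of 109607 for RUVBL2. Sequencing depth was unknown, and the labels do not say whether the H3K4ox replicates were separate cultures. Their spread may therefore be technical.

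HOX genes encode homeodomain transcription factors that give the body axis its regional identity, and their order along the chromosome matches the order in which they are used along the body. In differentiated cells the clusters are classical targets of opposing chromatin systems. Polycomb complexes keep HOX genes silent and compact, and Trithorax-group methyltransferases, which methylate lysine 4 of histone H3, keep them active. H2A.Z is a histone variant found at promoters and enhancers, both active and poised, and RUVBL2 is a subunit of the remodelling complexes that place it. Oxidised H3K4, the mark left by LOXL2, has been linked to compact chromatin.

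The 38 HOX genes of the 4 clusters were all found in the RefSeq gene table of GRCh38.p14, with 10 in HOXA, 10 in HOXB, 9 in HOXC and 9 in HOXD. That table gave only the order of genes, and peaks were not assigned to single genes, since no gene positions in hg19 were used here. For the same reason the identity of the line could not be checked at its marker genes. In HOXA and HOXB the low-numbered genes HOXA2 and HOXB1 lie at the lower coordinates and HOXA13 and HOXB13 at the upper ones. In HOXC and HOXD the order is opposite, with HOXC13 and HOXD13 at the lower end. The next protein-coding gene above the members is EVX1, another homeobox gene, for HOXA, TTLL6 for HOXB, SMUG1 for HOXC and MTX2 for HOXD. PRAC2 and PRAC1 lie between HOXB9 and HOXB13.

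The promoters of the HOX members were described by their number of CG dinucleotides, which the choice of windows did not use. RefSeq promoters, from 250 bases before to 50 bases after the gene start, were found for 20 of the 38 members. The median number of CG per promoter was 24.5 in these 20 genes and 16 in all 27305 genes of the table, taking for each gene its start with the most CG. At least 15 CG were present in 16 of the 20 (80.0%) and in 52.0% of all genes. These values rest on HOXA (9 genes, median 27) and HOXD (8 genes, median 24.5). HOXC had 2 genes at 15 CG and HOXB only HOXB1 at 11, both below the median of all genes. The 2 HOXC genes, HOXC4 and HOXC5, share the same start, so a single promoter just at the threshold counts as 2 of the 16. CG reads the same on both strands. Sequences are printed 5′ to 3′ on the gene's strand, with each CG in capitals. For each of the 3 clusters that held no H2A.Z peak, the member with the most CG among the promoters found is shown. They are HOXA13 (chr7:27200042-27200341, minus strand, 44 CG), HOXC4 (chr12:54016638-54016937, plus strand, 15 CG, a start shared with HOXC5) and HOXD1 (chr2:176188418-176188717, plus strand, 36 CG), all in GRCh38.p14.
HOXA13: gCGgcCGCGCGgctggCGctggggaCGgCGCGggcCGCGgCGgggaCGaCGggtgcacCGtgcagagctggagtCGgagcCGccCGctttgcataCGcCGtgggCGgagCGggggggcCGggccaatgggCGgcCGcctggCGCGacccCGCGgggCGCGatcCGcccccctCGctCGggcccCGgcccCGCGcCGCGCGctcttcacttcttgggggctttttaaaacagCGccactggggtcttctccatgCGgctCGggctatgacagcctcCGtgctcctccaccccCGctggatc
HOXC4: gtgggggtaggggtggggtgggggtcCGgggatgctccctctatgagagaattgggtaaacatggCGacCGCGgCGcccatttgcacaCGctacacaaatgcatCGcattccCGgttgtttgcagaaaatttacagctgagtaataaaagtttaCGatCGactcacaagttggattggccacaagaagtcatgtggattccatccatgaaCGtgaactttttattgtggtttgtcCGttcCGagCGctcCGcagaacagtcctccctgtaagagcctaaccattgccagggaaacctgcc
HOXD1: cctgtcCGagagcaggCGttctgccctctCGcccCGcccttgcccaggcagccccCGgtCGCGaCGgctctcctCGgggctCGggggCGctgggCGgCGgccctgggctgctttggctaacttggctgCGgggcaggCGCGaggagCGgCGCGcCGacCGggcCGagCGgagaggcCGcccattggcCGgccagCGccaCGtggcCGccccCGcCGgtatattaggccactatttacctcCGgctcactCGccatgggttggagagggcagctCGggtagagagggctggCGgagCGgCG
As the promoters found with the most CG in their clusters, they are not typical members. That of HOXC4 lies below the median of all genes. The number of CG describes the sequence alone, and its part in where peaks lay was not tested.

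HOXA, HOXC and HOXD held few peaks, and HOXB held most of the members. Of the 36 peaks of H3K4ox replicate 1, 30 lay in HOXB, 3 in HOXA, 2 in HOXD and 1 in HOXC. Of the 36 of replicate 2, 29 lay in HOXB, 4 in HOXD, 2 in HOXA and 1 in HOXC. All 5 H2A.Z peaks and 8 of the 10 RUVBL2 peaks were in HOXB, and the other 2 RUVBL2 peaks were in HOXD. HOXA and HOXC thus held neither an H2A.Z nor a RUVBL2 peak in either window. HOXB is also the longest window and lies on a chromosome with many peaks, so counts were next set per 100 kb beside the flanks.

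**Figure D1:**
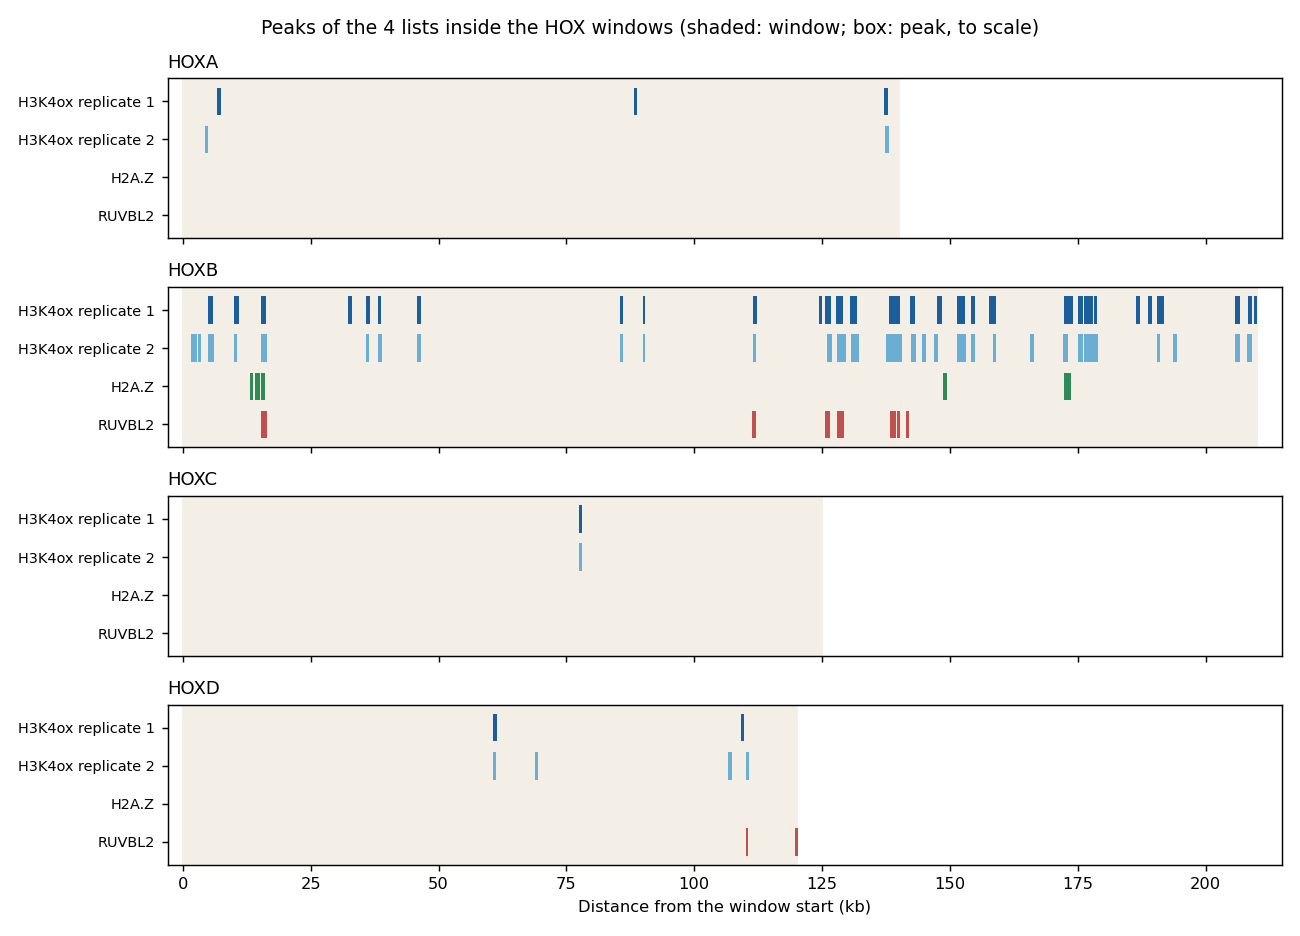
Peaks of the 4 lists inside the 4 HOX windows, drawn to scale against the distance from the window start in kb, with 1 row per library and the window shaded. HOXB carries 30 and 29 H3K4ox peaks, 5 H2A.Z peaks and 8 RUVBL2 peaks, and the longest stretches without a peak of any list run through HOXA, HOXC and HOXD.

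Peak density was compared with the 500 kb on each side of every window. Over the 4 windows together (595 kb) there were 6.05 H3K4ox peaks per 100 kb in each replicate, against 12.1 and 12.2 per 100 kb in the flanks. The ratio of window to flanks was 0.497 ± 0.004 (SD, n = 2). For H2A.Z the densities were 0.840 and 1.85 per 100 kb, a ratio of 0.454 (95% Clopper-Pearson interval 0.143 to 1.11). For RUVBL2 they were 1.68 and 5.17 per 100 kb, a ratio of 0.325 (0.153 to 0.609), and of 0.204 among peaks in the upper 50% of the list by score. The interval of H2A.Z includes 1 and that of RUVBL2 does not. All intervals given here cover counting error only, as if each peak arose alone, although peaks cluster along the genome. With 1 or 2 libraries per antibody no test over samples was made, and none of the differences between clusters was tested.

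The pooled ratios hide a difference between HOXB and the rest. Without HOXB, a choice made after seeing the values, the ratio was 0.191 ± 0.028 for H3K4ox (SD, n = 2) and 0.134 for RUVBL2 (0.016 to 0.496). HOXA, HOXC and HOXD together (385 kb) held 0 H2A.Z peaks, which allows up to 0.779 per 100 kb at 3 counts over the 3 windows. Their flanks held 1.13 H2A.Z peaks per 100 kb, a ratio of 0 with an upper limit of 0.893 in its 95% interval. As these windows were pooled after they were seen to hold no peak, that limit is a description only.

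HOXC was the sparsest cluster. Each H3K4ox replicate had 1 peak there, or 0.800 per 100 kb, against 12.5 per 100 kb in the flanks for replicate 1 and 12.1 for replicate 2. The ratio was 0.065 ± 0.001 (SD, n = 2), and its counting interval ended at 0.363 in replicate 1 and 0.375 in replicate 2. Both the lower flank (10.7 ± 0.7 per 100 kb) and the upper flank (13.9 ± 1.3) held many more peaks than the window. RUVBL2 had 0 peaks in the window and 3.50 per 100 kb in its flanks. A count of 0 in 125 kb allows up to 2.40 per 100 kb, at 3 counts per window, and the 95% interval of the ratio ended at 0.889. H2A.Z also had 0 peaks, and its flanks held 1.20 per 100 kb, under the limit that 0 allows, so a lower H2A.Z density in HOXC alone was not detectable with so few peaks.

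HOXA was also sparse. Replicate 1 had 3 H3K4ox peaks and replicate 2 had 2, or 2.14 and 1.43 per 100 kb, against 9.60 and 8.60 in the flanks. The ratio was 0.195 ± 0.040 (SD, n = 2), and the counting intervals of the replicates were 0.045 to 0.672 and 0.020 to 0.619. Both flanks were at a similar level, with 9.30 ± 0.42 H3K4ox peaks per 100 kb below the window and 8.90 ± 0.99 above it (SD, n = 2). RUVBL2 had 0 peaks in HOXA and 5.60 per 100 kb in the flanks. A count of 0 in 140 kb allows up to 2.14 per 100 kb, and the 95% interval of the ratio ended at 0.486. H2A.Z had 0 peaks and 1.70 per 100 kb in the flanks, which is again under the limit.

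HOXD had few H3K4ox peaks in sparse surroundings. Replicate 1 had 2 H3K4ox peaks (1.67 per 100 kb) and replicate 2 had 4 (3.33 per 100 kb), against 5.30 and 5.20 in the flanks. The ratios were 0.314 in replicate 1 (interval 0.037 to 1.19) and 0.641 in replicate 2 (0.168 to 1.74). Both intervals include 1, and the size of the difference in HOXD depended on the library. It also moved with a cut by score, which left few peaks. Among peaks in the upper 50% of each list the mean ratio was 0.167 in HOXD and 0.191 in HOXA. With all peaks it was 0.478 and 0.195. HOXA had 1 such peak in each replicate. HOXD had 0 in replicate 1 and 1 in replicate 2, just above the cut at percentile 50.2. The upper flank held 4.20 ± 0.57 H3K4ox peaks per 100 kb (SD, n = 2), close to the 3.33 of replicate 2 in the window. RUVBL2 had 2 peaks, 1.67 per 100 kb against 2.50 in the flanks, a ratio of 0.667 with an interval of 0.077 to 2.67. H2A.Z had 0 peaks in HOXD and only 0.5 per 100 kb in its flanks.

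HOXB held 14.3 and 13.8 H3K4ox peaks per 100 kb in the 2 replicates, above the genome mean of 8.45 ± 0.13 (SD, n = 2) but below the 21 and 23 of its flanks. The ratio was 0.640 ± 0.056 (SD, n = 2), with an interval of 0.448 to 1.00 in replicate 1, which reaches 1, and 0.393 to 0.886 in replicate 2. Its flanks were unequal, with 16.7 ± 1.6 per 100 kb below the window and 27.3 ± 1.3 above it, and chromosome 17 as a whole had 17.8 ± 0.1. H2A.Z density was 2.38 per 100 kb, against 4 in the flanks (ratio 0.595, interval 0.183 to 1.51). RUVBL2 density was 3.81 per 100 kb, against 9.10 (ratio 0.419, interval 0.175 to 0.860).

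The bases covered by H3K4ox peaks gave the same order as the peak counts. In HOXC 0.353 ± 0.030% of the window was covered, against 11.05% of its flanks, and in HOXA 1.27 ± 0.31% against 9.35%. HOXD had 1.66 ± 0.89% against 5.89%, and HOXB 14.1 ± 0.1% against 23.1% (SD, n = 2 for each window). All 4 windows thus stood below their flanks in bases as in peaks, with HOXC and HOXA the furthest below in proportion.

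**Figure D2:**
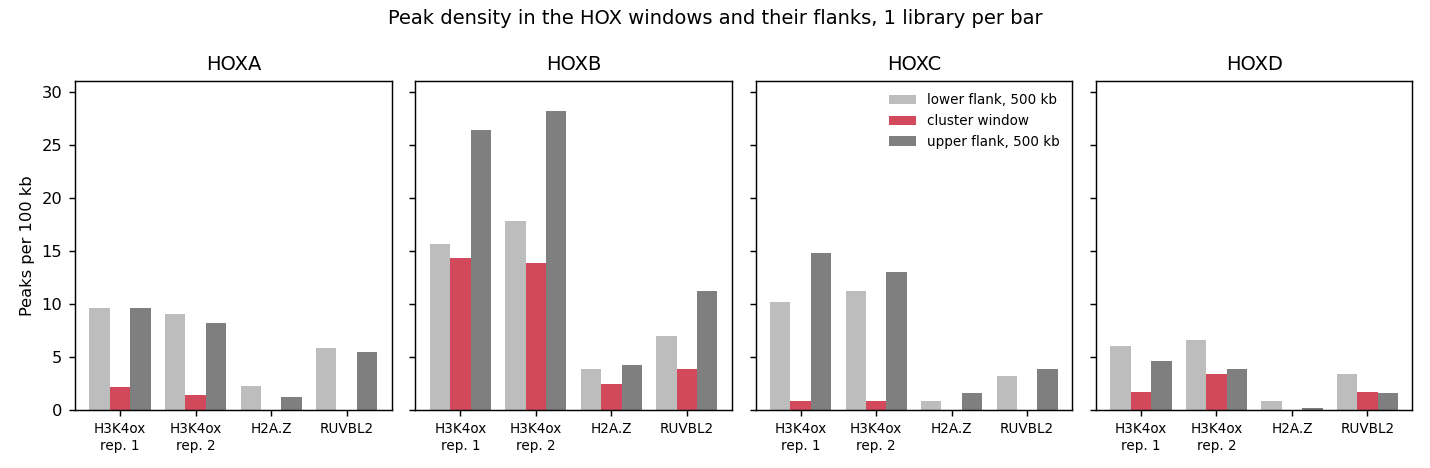
Peaks per 100 kb in each HOX window (red) and in the 500 kb below (light grey) and above it (dark grey), with 1 bar per library and region. HOXA, HOXB and HOXC stand below both flanks in the H3K4ox and RUVBL2 libraries, and HOXD does so in the H3K4ox libraries. HOXB lies at 14.3 and 13.8 H3K4ox peaks per 100 kb, nearer to its lower flank.

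Each cluster was then set beside all genome windows of its own length, leaving out those in peak-free stretches of 1 Mb or more. The shares below describe these libraries and are no test. HOXA had as few H3K4ox peaks as 12.8% of 20327 windows of 140 kb in replicate 1 and 7.74% in replicate 2. HOXC had as few as 4.53% and 4.95% of 22770 windows of 125 kb, and HOXD as few as 10.2% and 25.9% of 23718 windows of 120 kb. HOXB was at the other end: 82.6% and 82.4% of 13542 windows of 210 kb had at most its number. The median window of 140 kb held 9 H3K4ox peaks in each replicate, and that of 210 kb held 14 and 13.

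Setting each window against its own flanks allows for sparse surroundings. The ratio of H3K4ox density in a window to that in its flanks was as low as in HOXA in 1.44% of windows and as low as in HOXC in 0.848%. A ratio as low as that of HOXD was found in 11% of windows and one as low as that of HOXB in 17.9%. The median ratio over windows was between 0.95 and 0.955 for the 4 lengths. For RUVBL2, 7.46% of windows had no peak, as in HOXA, 9.12% had none, as in HOXC, and 38.1% had at most the 2 of HOXD. At most 8 RUVBL2 peaks, as in HOXB, were found in 67.6%.

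Absence of H2A.Z was common along the genome. No H2A.Z peak was found in 34.6% of windows of the length of HOXA, 37.6% for HOXC and 38.7% for HOXD. At most the 5 H2A.Z peaks of HOXB were found in 84.6% of windows. The 3 HOX windows without H2A.Z were thus of a kind that made up more than 1 in 3 windows of the genome.

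**Figure D3:**
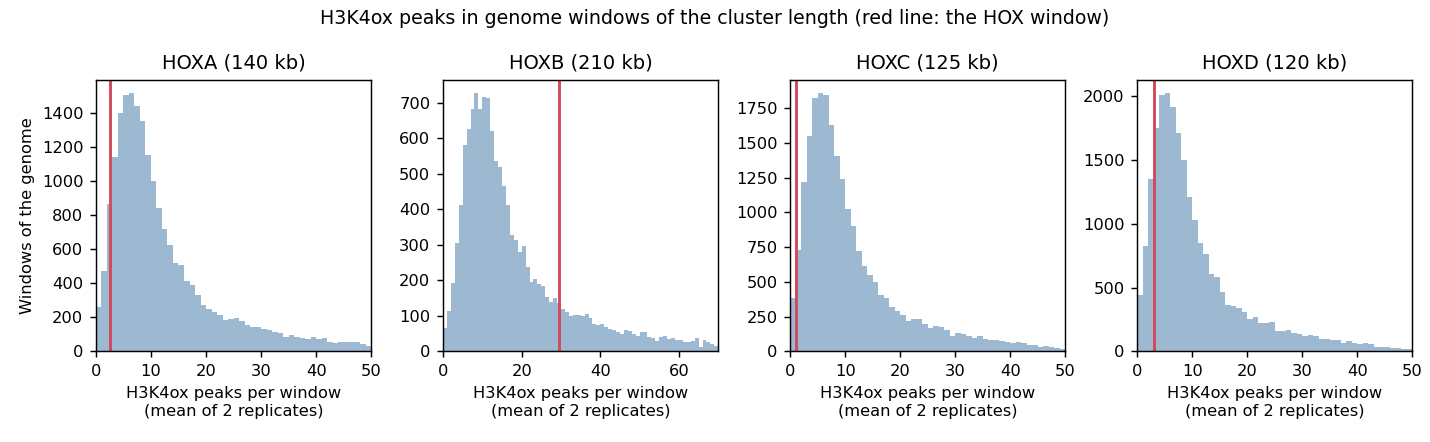
Number of genome windows (vertical axis) by the mean count of H3K4ox peaks of both replicates (horizontal axis, which ends at 50, or at 70 for HOXB), for windows as long as each cluster. The red line marks the HOX window: at 2.5 for HOXA, 1 for HOXC and 3 for HOXD it lies at the low end, and at 29.5 for HOXB above the median window.

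The longest stretches free of peaks of all 4 lists lay inside the windows of HOXA and HOXB and crossed the lower edge in HOXC and HOXD. In HOXA the stretch reached from 27127402 to 27208306 on chromosome 7, 80.9 kb or 57.8% of the window, while the longest one within its flanks was 30.5 kb. In HOXC it reached from 54307253 to 54407518 on chromosome 12, 100.3 kb, of which 77.5 kb lay inside the window on the HOXC13 side, against 28.0 kb in the flanks. In HOXD it reached from 176930892 to 177000580 on chromosome 2, 69.7 kb, of which 60.6 kb were inside the window on the HOXD13 side. The flanks of HOXD held a longer one of 103.1 kb. HOXB had its own, from 46646524 to 46685438 on chromosome 17, 38.9 kb, close to the 36.7 kb of its flanks. Of 343516 peak-free stretches under 1 Mb in the genome, 0.318% were as long as that of HOXA, 0.172% as long as that of HOXC and 0.504% as long as that of HOXD. For HOXB it was 2.45%. Long stretches take up more of the genome than their number shows. Of the bases between the first and last peak of each chromosome, 4.38% lay in such a stretch at least as long as that of HOXA, 2.87% for HOXC, 6.01% for HOXD and 17.3% for HOXB.

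**Figure D4:**
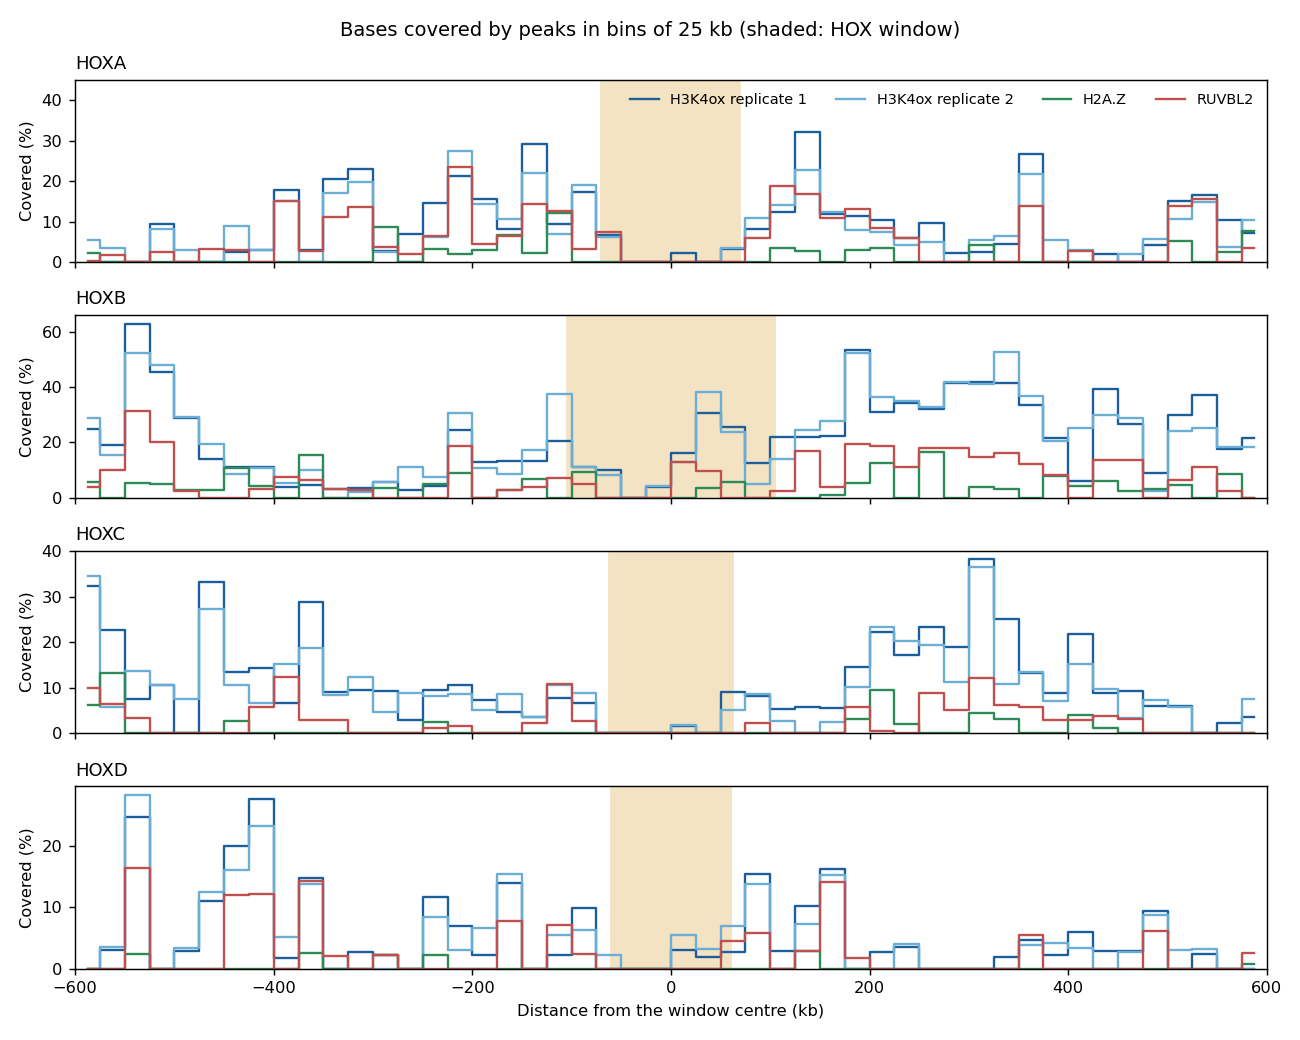
Percent of bases covered by peaks in bins of 25 kb, against the distance from the window centre in kb, with 1 line per library and the HOX window shaded. Coverage is 0 across the longest peak-free stretches, 80.9 kb in HOXA, 77.5 kb of the HOXC window and 60.6 kb of the HOXD window, and it is higher in the upper part of HOXB than in its lower part.

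The few peaks of HOXA were weak except for 1 site at the upper edge. Scores are those of the authors' peak caller, have a lowest value of 50 in every list, and are given with their percentile within the list. Replicate 1 had peaks at 27126658 to 27127401 (score 51.4, percentile 3.6) and 27208307 to 27208850 (51.9, percentile 4.9), and replicate 2 had 1 at 27124244 to 27124831 (55.4, percentile 13.0). None of these 3 met a peak of the other replicate, whereas 67.8% of all peaks of replicate 1 and 70.2% of all peaks of replicate 2 did. The remaining peak of each replicate lay at 27257179 to 27257966 (score 172.6, percentile 82.1) and 27257258 to 27258140 (183.2, percentile 84.1). It made the only H3K4ox region common to both replicates in HOXA, about 2 kb from the upper edge of the window on the side of EVX1. Just outside the lower edge, H3K4ox peaks of both replicates (scores 61.8 and 81.7) and a RUVBL2 peak (109.4) lay within 1.61 to 1.89 kb of the window.

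The single site of HOXC was narrow and weak. It lay at 54407544 to 54407958 in replicate 1 (415 bp, score 56.95, percentile 15.9) and at 54407519 to 54407986 in replicate 2 (468 bp, score 70.9, percentile 38.9). The nearest peaks outside the window were at 5.15 kb in replicate 1 and 1.80 kb in replicate 2, both on the upper side next to the genes HOXC4, HOXC5 and HOXC6. The nearest RUVBL2 peaks lay 26.0 kb below and 13.4 kb above the window, and the nearest H2A.Z peaks 167.7 kb below and 126.9 kb above it. The HOXC window was thus far from any H2A.Z peak and H3K4ox peaks lay close to it only beyond its upper edge.

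In HOXD all peaks lay in the upper 60 kb, towards HOXD1. The region at 177000581 to 177001330 was common to both H3K4ox replicates (scores 60.6 and 80.3). Of the other peaks, replicate 1 had 1 at 177049144 to 177049624 (score 78.2) and replicate 2 had 3, at 177008797 to 177009535 (82.2), 177046632 to 177047416 (51.0) and 177050090 to 177050688 (54.1). A RUVBL2 peak at 177050102 to 177050589 (score 65.8, percentile 39.9) met the last of these. The second RUVBL2 peak, at 177059600 to 177060231 (50.9, percentile 3.6), crossed the upper edge of the window, and the H3K4ox peaks it met lay 0.155 and 0.208 kb outside. This peak was a member through the part of it that lies inside the window.

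HOXB had peaks at both ends and a gap in its lower part. The window was divided into 10 parts of 21 kb, with peaks placed by their centres, after the values had been seen. Part 1, at the HOXB1 end, held 3 and 5 H3K4ox peaks in the 2 replicates, 3 H2A.Z peaks and 1 RUVBL2 peak. Part 4 held none of any list, and parts 2 to 5 held no H2A.Z or RUVBL2 peak. Parts 6 to 10, towards HOXB13, held 21 H3K4ox peaks of replicate 1 and 19 of replicate 2, against 9 and 10 in parts 1 to 5. They also held 7 of the 8 RUVBL2 peaks, of which 6 were in part 7 alone. H2A.Z was split, with 3 peaks in the lower 105 kb and 2 in the upper.

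The best-scoring H3K4ox sites of the 4 clusters both lay in the upper part of HOXB. The first was at 46737524 to 46740516, a region of 2993 bp, with a score of 316.6 in replicate 1 (percentile 93.3) and 416.9 in replicate 2 (percentile 96.7), where it was the widest peak of the window. Within it lay 3 RUVBL2 peaks of low score, at 46738201 to 46738759 (51.6), 46738826 to 46739464 (62.4) and 46739594 to 46740238 (55.7). It held no H2A.Z. The second was at 46776221 to 46778990, a region of 2770 bp, with scores of 317.4 and 400.1, and held neither H2A.Z nor RUVBL2. These were the members in the upper 10% of the H3K4ox lists by score, 2 in each replicate or 5.56% of its members. The flanks of the clusters had 6.82% of replicate 1 and 8.38% of replicate 2 there.

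A region with all 3 antibodies occurred once, near the HOXB1 end. It lay at 46615318 to 46616429, with H3K4ox scores of 168.6 and 121.2, an H2A.Z peak at 46615368 to 46616157 (score 94.4, percentile 76.6) and a RUVBL2 peak at 46615239 to 46616490 (score 152.1, percentile 83.9). That RUVBL2 peak was the best-scoring one of the 4 clusters. A pair of further H2A.Z peaks lay just below it, at 46613095 to 46613650 (61.5) and 46614123 to 46615094 (61.4), outside any H3K4ox peak. The best-scoring H2A.Z peak was elsewhere, at 46772268 to 46773717 (119.8, percentile 85.6, width 1450 bp), in an H3K4ox region of both replicates (175.6 and 98.6) without RUVBL2. The fifth, at 46748555 to 46749417 (75.0), met no other list.

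Of the 8 RUVBL2 peaks in HOXB, 7 lay in H3K4ox regions of both replicates, against 64.4% of all RUVBL2 peaks and 74.7% of those in the flanks of HOXB. Besides the sites above, RUVBL2 was found at 46727907 to 46729236 (score 149.8, width 1330 bp, the widest RUVBL2 member), where H3K4ox had 147.1 and 202.2. RUVBL2 was also found at 46725518 to 46726599 (111.8), with H3K4ox at 85.8 and 97.0, and at 46711313 to 46712136 (57.6), with H3K4ox at 63.1 and 83.5. The peak at 46741368 to 46741943 had the lowest score, 50.02, and met none.

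**Figure D5:**
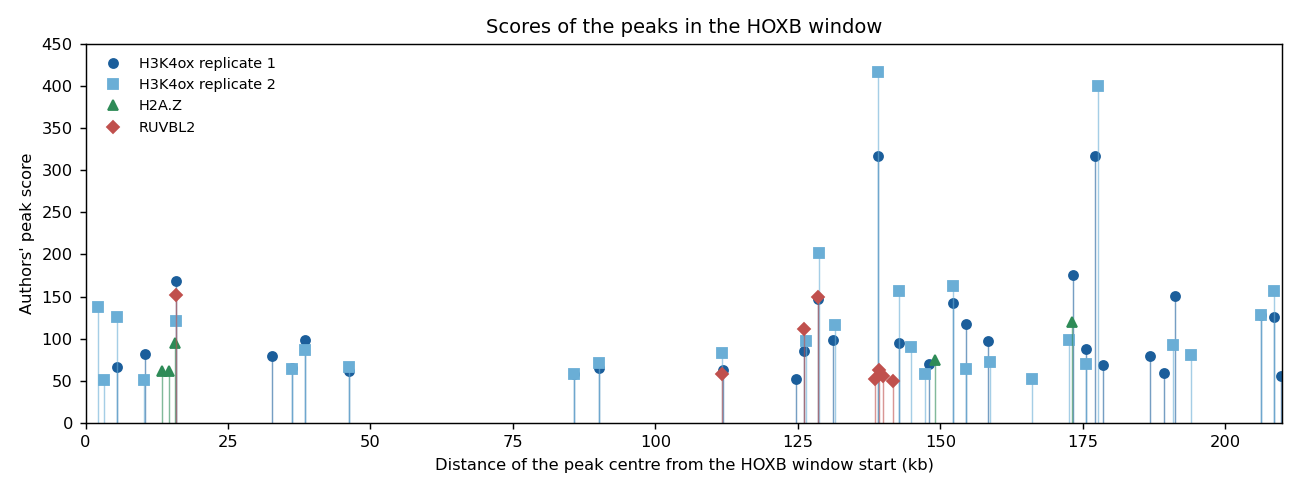
Scores given by the authors' peak caller to the HOXB peaks (vertical axis) against the distance of the peak centre from the window start in kb, with 1 symbol per peak and 1 colour and shape per library. A pair of H3K4ox sites reaches 316.6 to 416.9 in the upper part, and RUVBL2 peaks gather near 125 to 142 kb at scores from 50.02 to 149.8.

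Joint sites were counted over the 4 windows and compared with the whole lists. Of the H3K4ox members, 28 of 36 in replicate 1 (77.8%, 95% Wilson interval 61.9 to 88.3) met a peak of replicate 2, against 67.8% of that list. In the other direction it was 27 of 36 (75.0%, 58.9 to 86.2), against 70.2%. Agreement was uneven: it was 25 of 30 and 24 of 29 in HOXB, where the flanks had 79.0% and 72.6%. In the other clusters together it was 3 of 6 and 3 of 7. Unmatched peaks of these clusters lay at score percentiles from 2.4 to 50.2 of their lists, and matched ones from 15.9 to 84.1. Whether agreement depended on score was not tested. Merging both replicates gave 27 regions with peaks of each, 24 in HOXB and 1 in each other cluster. That was 11.4 per 100 kb in HOXB, and 0.714, 0.800 and 0.833 in HOXA, HOXC and HOXD, against 15.2, 5.40, 7.60 and 3.50 in their flanks. The intervals of both replicates include the share of the whole list.

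RUVBL2 members met these common H3K4ox regions in 8 of 10 cases (80.0%, 95% Wilson interval 49.0 to 94.3), against 64.4% of all RUVBL2 peaks and 68.1% of those in the flanks. With each peak cut to 200 bp at its centre the share was 30.0%, against 25% of the whole list treated in the same way. Seen from H3K4ox, 5 of 27 regions held RUVBL2 (18.5%, 8.18 to 36.7), against 38.5% of all such regions and 39.1% in the flanks. In HOXB alone it was 5 of 24 (20.8%, 9.24 to 40.5), and 37.5% in its flanks. Of the 8 RUVBL2 peaks in such regions, 3 shared 1 region and 1 met a region that lay outside the window, so 8 peaks account for 5 regions. The interval over all 27 regions ends just below the share of the whole list, that for HOXB includes it, and the difference was not tested.

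H2A.Z members met a common H3K4ox region in 2 of 5 cases (40.0%, 95% Wilson interval 11.8 to 76.9), against 45.2% of all H2A.Z peaks, and a RUVBL2 peak in 1 of 5 (20.0%, 3.62 to 62.4), against 33.4%. Of the 27 regions, 2 held H2A.Z (7.41%, 2.06 to 23.4), against 10.3% of all. With 200 bp at the centres the share of H2A.Z members in H3K4ox regions was 20.0%, against 19.0% of the whole list. With the lists of all antibodies cut to their upper 50% by score it was 66.7% of 3 members, against 31.9%. Of these members 33.3% met a RUVBL2 peak of the cut list, against 23.6%. The 1 region with H2A.Z and RUVBL2 was 3.70% of the 27 (0.657 to 18.3), against 6.21% of all and 4.10% in the flanks. With 5 H2A.Z peaks these shares could not be told apart from those of the whole list.

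Scores of H3K4ox members were near the median of their lists in HOXB, and those of RUVBL2 members were below it. The median score of H3K4ox members in HOXB was 88.3 ± 2.4 (SD, n = 2), against 82.7 ± 1.0 for the whole lists, and their median width was 876.5 ± 37.5 bp against 829.5 ± 16.3 bp. In HOXA, HOXC and HOXD together the median score was 58.8 in replicate 1 and 70.9 in replicate 2, and the median width 631.5 ± 17.7 bp. RUVBL2 members had a median score of 60.01, between 50.02 and 152.1, against 73.4 for the list. Only 3 of the 10 lay in the upper 50% of the list by score. H2A.Z members had a median of 75.0, between 61.4 and 119.8, against 66.7, and the flanks of the clusters had 75.5.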

How the data were processed

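ChIP-seq peaks of 4 libraries were analysed, grouped by the antibody in the labels. Each library had its own deposited list with 1 score per peak, written by the authors' caller. Peak names start with MACS, but its version, its settings and the scale of the score are stated in no source used here. Build hg19 and the aligners Bowtie and TopHat come from the submitters' processing notes, with no version or role. Each track line carries the word multilocus without saying what it means, and only the H3K4ox lines name an input. How reads that map to many places were treated can change peak numbers. No depth was known, so precision rests on peak numbers and the 2 H3K4ox replicates.

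Peaks were counted in Python 3.11.15 (scipy 1.17.1, pandas 2.3.3, numpy 2.4.6) and plotted with matplotlib 3.10.9. Overlap meant 1 shared bp. H3K4ox regions were merged peaks of both replicates holding at least 1 of each. Flank peaks left out those counted in the window. Genome windows were laid end to end on chromosomes 1 to 22 and X. Wilson and Clopper-Pearson intervals are at 95%, and a count of 0 was limited by 3 counts. The counting of overlaps was tested on simulated data. Sites were named by rule: in each cluster the 3 best-scoring peaks and the widest peak of each list, regions with all antibodies, and the longest peak-free stretch. Other peaks were named after their values were seen. The members, windows and settings were chosen with earlier results of these data known. Lists of flanking, cofactor, Polycomb, Trithorax and cell type marker genes had been set down but need gene positions in hg19 and were not used here.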

Additional observations from a re-analysis of the deposited data

How the results depend on the processing

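No paired analysis was possible because only H3K4ox had more than 1 library with a list. No result was tested over samples, so the settings below show how values moved, not calls. The H3K4ox density ratio over all clusters (0.497) was 0.479 with flanks of 250 kb, 0.488 with flanks of 1000 kb, 0.461 as bases covered, and 0.495 to 0.5 with a single replicate. With HOXB left out it was 0.191, and the ratios of H2A.Z and RUVBL2 were 0 and 0.134. Of 68 ratios of single clusters under other settings, 25 belong to libraries without a peak in the window and are 0 by construction, and all 43 others were below 1. The share of H3K4ox members found in the other replicate (76.4% on average) was 69.4% with 50% of the peak covered and 52.8% with intervals of 200 bp at the centres, where the whole lists had 51.2% and 52.4%. The share of RUVBL2 members in common H3K4ox regions (80.0%) was 30.0% with intervals of 200 bp (whole list 25%). With every list cut to its upper 50% by score it was 100.0% of 3 peaks (whole list 70.4%). It was 80% to 90% with a single H3K4ox replicate. In the upper 50% by score HOXC held no H3K4ox peak and HOXD no RUVBL2 peak. The cause of these moves was not tested. The few members, 5 for H2A.Z and 10 for RUVBL2, limit every share.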
